A study of Mus musculus with 2 samples.

Results

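The genes described here are 10 splicing regulators associated with muscle and epithelium, namely Esrp1, Esrp2, Rbfox1, Rbfox2, Mbnl1, Mbnl2, Mbnl3, Celf1, Celf2 and Ptbp1. They were taken by symbol, and all 10 had a row among the 43346 mouse genes of the tables. The tissue was limb of mouse embryos of strain B6NCrl at embryonic day 15.5, healthy and of both sexes. There was 1 group with 2 libraries of total RNA, replicate 1 from a pool of 78 embryos and replicate 2 from a pool of 62 embryos. The labels name no treatment and no genetic change, and they do not say which limbs were taken, so the values are levels in 1 tissue at 1 stage. Levels are in TPM, an abundance divided by transcript length and scaled to a fixed total per library.

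These proteins bind RNA beside alternative exons and set whether an exon is joined into the messenger RNA, an effect that often depends on whether the protein sits upstream or downstream of the exon. Esrp proteins are made in epithelia and hold the epithelial splicing pattern, while Rbfox, Mbnl and Celf proteins act in the change from the fetal to the adult splicing pattern of muscle, where Mbnl and Celf often act in opposite directions. Ptbp1 is made in most dividing cells and is best known as a repressor of exons used in neurons and muscle.

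Several of these genes are themselves alternatively spliced, and 4 of their exons that can be included without shifting the reading frame carry results below. Exons are in capitals, with 15 bases of the neighbouring coding exons in lower case. They were read from GENCODE M21 transcripts on GRCm38, 5′ to 3′ on the strand of the gene. The 54-nt exon of Mbnl1 (chr3:60614683-60614736, plus strand) is known for its part in keeping the Mbnl1 protein in the nucleus. The 36-nt exon (chr3:60621423-60621458, plus strand) lies further downstream in the same gene. The 78-nt exon of Ptbp1 (chr10:79860117-79860194, plus strand) encodes part of the linker between RNA-binding domains. The 144-nt exon of Celf2 (chr2:6549832-6549975, minus strand) is near the 3′ end of the coding sequence.
Mbnl1 54-nt exon: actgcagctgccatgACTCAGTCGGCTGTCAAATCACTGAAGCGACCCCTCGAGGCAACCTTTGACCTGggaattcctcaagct
Mbnl1 36-nt exon: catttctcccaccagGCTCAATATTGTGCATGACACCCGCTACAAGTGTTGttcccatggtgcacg
Ptbp1 78-nt exon: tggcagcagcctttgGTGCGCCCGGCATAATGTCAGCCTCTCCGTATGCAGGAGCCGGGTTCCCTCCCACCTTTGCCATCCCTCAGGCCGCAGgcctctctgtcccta
Celf2 144-nt exon: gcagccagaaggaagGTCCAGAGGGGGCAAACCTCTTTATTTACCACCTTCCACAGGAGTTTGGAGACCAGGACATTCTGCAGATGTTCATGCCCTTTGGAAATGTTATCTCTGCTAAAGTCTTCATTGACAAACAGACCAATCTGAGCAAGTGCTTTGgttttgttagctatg

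Replicate 1 had 35104685 estimated counts in all and replicate 2 had 41757268. The 10 epithelium markers summed to 3172 and 3115 TPM in replicates 1 and 2, most of it from the keratins Krt5, Krt14 and Krt15. The 5 mesenchyme markers summed to 8334 and 7012 TPM in replicates 1 and 2, most of it from the collagens Col1a1 and Col3a1, while the other 3 were higher in replicate 2, with log2 differences of replicate 1 over replicate 2 of -0.15 for the limb factor Prrx1, -0.17 for Pdgfra and -0.63 for Twist1. The 5 blood markers summed to 30510 and 30918 TPM in replicates 1 and 2, and no marker of any list was at 0. The 10 muscle markers summed to 7408 and 2299 TPM in replicates 1 and 2, and all 10 were higher in replicate 1, with a median log2 difference of 1.53. In bulk tissue, fewer cells of a type and less RNA per cell cannot be told apart. The part of this muscle difference in the values below was not tested.

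All 10 regulators were detected in both libraries, and their levels spanned from Ptbp1 at the top to Rbfox1 at the bottom. Ptbp1 (ENSMUSG00000006498.12, chromosome 10, 79854427 to 79864771) had 254.69 and 249.27 TPM in replicates 1 and 2, a mean of 252 ± 3.83 TPM (SD, n = 2) and rank 606 of 43346 genes. It was 2.75-fold above the next regulator, Mbnl1. Rbfox1, on 193 counts in replicate 1 and 114 counts in replicate 2, had rank 12826. In the order of levels Ptbp1, Mbnl1, Mbnl2, Celf2, Celf1, Esrp2, Esrp1, Rbfox2, Mbnl3 and Rbfox1, the ranges of the 2 libraries overlapped between Celf2 and Celf1, between Celf1 and Esrp2, and between Esrp1 and Rbfox2. By TPM the other neighbours were apart in both libraries, but the order of Mbnl1 and Mbnl2 turned on counts not divided by length.

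**Figure D1:**
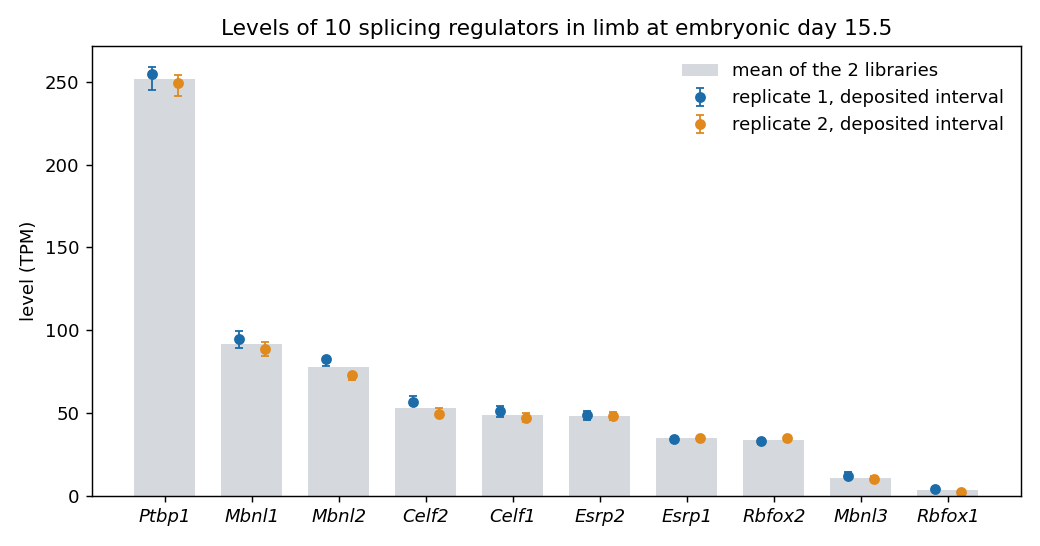
Level of each of the 10 regulators in TPM (vertical axis, linear), with the mean of both libraries as a bar and each library as a point with its deposited interval, which covers counting and the assignment of reads. Ptbp1 stands at 252 TPM, and every other regulator has a mean under 100 TPM. For Mbnl2 both points lie above their intervals, whose upper bounds are 82.007 and 72.96 TPM in replicates 1 and 2. There the drawn interval ends at the point.

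Both epithelial regulators were close between the libraries, and by gene TPM Esrp2 was the higher of the pair. Esrp1 (ENSMUSG00000040728.11, chromosome 4, 11331933 to 11386783), needed in mouse for normal epithelial splicing, had 34.48 and 34.69 TPM in replicates 1 and 2. Its paralogue Esrp2 (ENSMUSG00000084128.6, chromosome 8, 106130319 to 106136974) had 48.59 and 47.91 TPM in replicates 1 and 2. By gene TPM, over coding and noncoding transcripts, Esrp2 was thus the higher in each library. The log2 ratio of Esrp1 over Esrp2 was -0.48 ± 0.02 (SD, n = 2). Esrp2 made 58.2% ± 0.347 of their summed TPM of 82.8 ± 0.332 (SD, n = 2). In size this log2 ratio is larger than 0.39, the yardstick used for ratios. The yardstick is the size that 95 percent of genes of like level do not exceed in log2 difference from library to library. It does not cover effects of length or annotation between 2 genes, so passing it does not settle which paralogue is higher. On counts not divided by length the ratio was -0.12, below the yardstick. Coding transcripts held 99.1% ± 0.147 of the Esrp1 TPM and 78.3% ± 1.67 of the Esrp2 TPM (SD, n = 2). Those of Esrp2 stood at 38.59 and 36.94 TPM in replicates 1 and 2, nearer to the Esrp1 level. The ratio over coding transcripts alone was not computed. Of the 10 epithelium markers 8 were higher in replicate 2, with a median log2 difference of -0.09, and the claudins Cldn4, at -0.54, and Cldn7, at -0.68, lay past their yardsticks of 0.37 and 0.57. The part of epithelial cells in the Esrp levels was not tested. Nfatc3 and 1810019D21Rik overlap Esrp2 on the opposite strand, with mean levels under 10 TPM each, and whether strand was used in counting is not given in the sources used here.

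Of the Rbfox pair, Rbfox2 carried nearly all of the signal. Rbfox2 (ENSMUSG00000033565.12, chromosome 15, 77078990 to 77307004), the broadly made member of the family, had 32.77 and 34.81 TPM in replicates 1 and 2. Rbfox1 (ENSMUSG00000008658.11, chromosome 16, 5885355 to 7411526), known from neurons and muscle, had 4.23 and 2.03 TPM in replicates 1 and 2. Rbfox1 was the only regulator of the 10 whose level in 1 library was about double that in the other, and its deposited intervals were 3.33 to 5.01 TPM in replicate 1 and 1.52 to 2.55 TPM in replicate 2. Rbfox1 made 11.3% of the summed Rbfox TPM in replicate 1 and 5.48% in replicate 2, while the sum itself was 37.2 ± 0.163 TPM (SD, n = 2). Rbfox2 exceeded Rbfox1 by 7.59-fold in replicate 1 and 16.4-fold in replicate 2 (TPM + 0.1). Rbfox3, the neuronal member, averaged 0.245 ± 0.0495 TPM (SD, n = 2).

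The Mbnl genes, whose proteins promote adult splicing patterns in muscle, summed to 180 ± 11.9 TPM (SD, n = 2). Mbnl1 (ENSMUSG00000027763.9, chromosome 3, 60472830 to 60629750) had 94.56 and 88.67 TPM in replicates 1 and 2. Mbnl2 (ENSMUSG00000022139.12, chromosome 14, 120275669 to 120431697) had 82.32 and 72.99 TPM in replicates 1 and 2. Their log2 ratio, Mbnl1 over Mbnl2, was 0.24 ± 0.06 (SD, n = 2) and did not pass the yardstick of 0.30, and on counts that were not divided by length Mbnl2 was the higher. Mbnl3 (ENSMUSG00000036109.13, chromosome X, 51117269 to 51206532), which is expressed in muscle precursors and whose protein opposes muscle differentiation in cultured mouse cells, had 11.67 and 10.12 TPM in replicates 1 and 2. It made 6.04% ± 0.211 of the Mbnl sum (SD, n = 2), and Mbnl1 exceeded it by 8.36-fold in TPM + 0.1.

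The Celf genes, whose proteins promote fetal splicing patterns in striated muscle, were at near-equal levels. Celf1 (ENSMUSG00000005506.12, chromosome 2, 90940382 to 91019497) had 51.13 and 46.63 TPM in replicates 1 and 2. Celf2 (ENSMUSG00000002107.14, chromosome 2, 6539694 to 7509563) had 56.83 and 49.51 TPM in replicates 1 and 2. The log2 ratio of Celf1 over Celf2 was -0.12 ± 0.05 (SD, n = 2), within the yardstick of 0.37, and it turned positive on counts not divided by length. Celf1 and Celf2 together made nearly all of the family's 105 ± 7.89 TPM (SD, n = 2). Of the paralogues outside the 10 regulators, Celf4 averaged 2.14 ± 0.396 TPM and Celf5 0.955 ± 0.0636 TPM, and Celf3 and Celf6 were lower still (SD, n = 2). The summed Mbnl level exceeded the summed Celf1 and Celf2 level by 1.77-fold, a log2 ratio of 0.82 ± 0.02 (SD, n = 2).

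Ptbp1 made 80.3% ± 0.161 of its family's summed TPM (SD, n = 2). Ptbp2, the paralogue that replaces Ptbp1 in developing neurons, had 22.12 and 23.08 TPM in replicates 1 and 2. The widely made Ptbp3 had 40.07 and 38.67 TPM in replicates 1 and 2. Ptbp1 exceeded Ptbp2 by 11.1-fold and Ptbp3 by 6.39-fold in TPM + 0.1, beyond the yardstick of 0.52 on the log2 scale in both ratios. The 6 neuron markers summed to 33.1 and 35.0 TPM in replicates 1 and 2, with Stmn2 at 9.84 ± 0.0354 TPM (SD, n = 2). The part of neurons in the Ptbp2 level was not tested. Plppr3, which overlaps Ptbp1 on the opposite strand, had 44.69 and 49.29 TPM in replicates 1 and 2.

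The libraries were then compared gene by gene by the log2 ratio of TPM + 0.1, replicate 1 over replicate 2, with the median gene set to 0. By deposited TPM 8 of the 10 regulators were higher in replicate 1 and 2 in replicate 2, while 54.8% of the 15571 genes with a mean of at least 1 TPM were higher in replicate 1. Esrp2 lay marginally on the side of replicate 2 once the median gene was set to 0. On counts scaled by median-of-ratios size factors, Mbnl3, at -0.01 in place of 0.18, and Ptbp1, at under 0.01 in size, turned to the side of replicate 2. The median of the 10 was 0.09. Only Rbfox1 lay past 2-fold, at a log2 difference of 1.00, against 3.63% of those 15571 genes in either direction and 2.47% in favour of replicate 1. None of the 10 passed the yardstick for its level, which was 1.33 at the level of Rbfox1. Rbfox1 sat just past the 2-fold line, at 1.0003 before rounding, and fell short of it at 0.77 with a pseudocount of 1 and at 0.98 with posterior mean TPM. The deposited intervals of the libraries did not overlap for 4 of the 10 regulators, namely Mbnl2, Celf2, Rbfox2 and Rbfox1, against 23.2% of the 15571 genes.

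**Figure D2:**
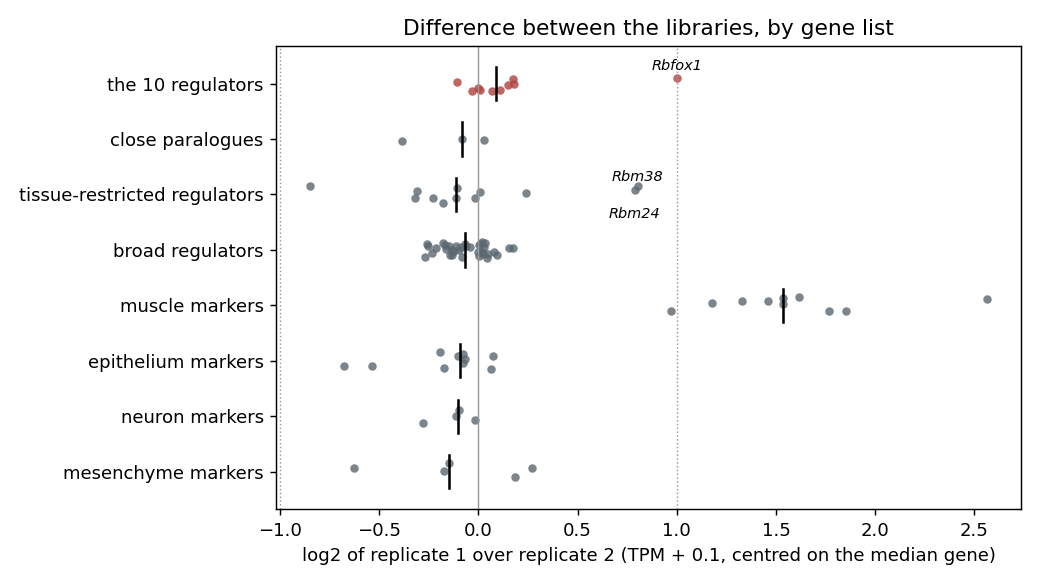
Log2 of replicate 1 over replicate 2 for each gene with a mean of at least 1 TPM (horizontal axis), by list (rows), with the list's median as a black line and 2-fold as dotted lines. All regulators but Rbfox1 lie between -0.11 and 0.18, Rbfox1 itself lies at 1.00, and the muscle markers lie between 0.97 and 2.56.

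Other splicing regulators gave the setting for these differences. Of 15 tissue-restricted regulators, 12 had a mean of at least 1 TPM and 1 of them passed its yardstick. This was Rbm38, which acts in muscle and blood cell differentiation, with 31.99 and 17.98 TPM in replicates 1 and 2, a log2 difference of 0.80 against a yardstick of 0.51. Rbm24, its paralogue in heart and skeletal muscle, had 5.87 and 3.30 TPM in replicates 1 and 2, a log2 difference of 0.79 that stayed below its yardstick of 1.10. Rbm20, a regulator of titin splicing, averaged 3.27 ± 0.431 TPM, Qk, which acts in muscle and glia, 22.7 ± 0.339 TPM, and the epithelial Rbm47 6.24 ± 0.643 TPM (SD, n = 2). Msi2 averaged 10.5 ± 0.445 TPM and Msi1 6.92 ± 0.0283 TPM (SD, n = 2). Khdrbs3, Khdrbs2, Nova1, Elavl4 and Elavl2 averaged 3.56 ± 0.276, 2.82 ± 0.424, 1.78 ± 0.262, 1.50 ± 0.0707 and 1.23 ± 0.523 TPM (SD, n = 2). Of 36 broad regulators, 35 had a row and none was over 2-fold apart or past its yardstick. They ran from Hnrnpk at 1215 TPM and Hnrnpa2b1 at 758 TPM to Tial1 at 21.8 TPM and Srsf12 at 12.1 TPM, so Ptbp1 lay within their range.

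The transcript tables listed 114 transcripts of the 10 genes, and 61 of them had a mean of at least 1 TPM. Of these 61, 9 were over 2-fold apart between the libraries, 5 higher in replicate 1 and 4 higher in replicate 2, a share of 14.8% against 9.24% of 33605 transcripts with a mean of at least 1 TPM. All 9 belonged to Celf1, with 5, and Mbnl1, with 4, genes with many overlapping transcripts, and the deposited intervals of all 9 overlapped between the libraries. The transcripts whose intervals did not overlap were 4 of the 61, namely Rbfox1-201, Rbfox2-203, Mbnl2-202 and a Celf2 transcript annotated as a target of nonsense-mediated decay, against 12.3% of the 33605 transcripts.

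**Figure D3:**
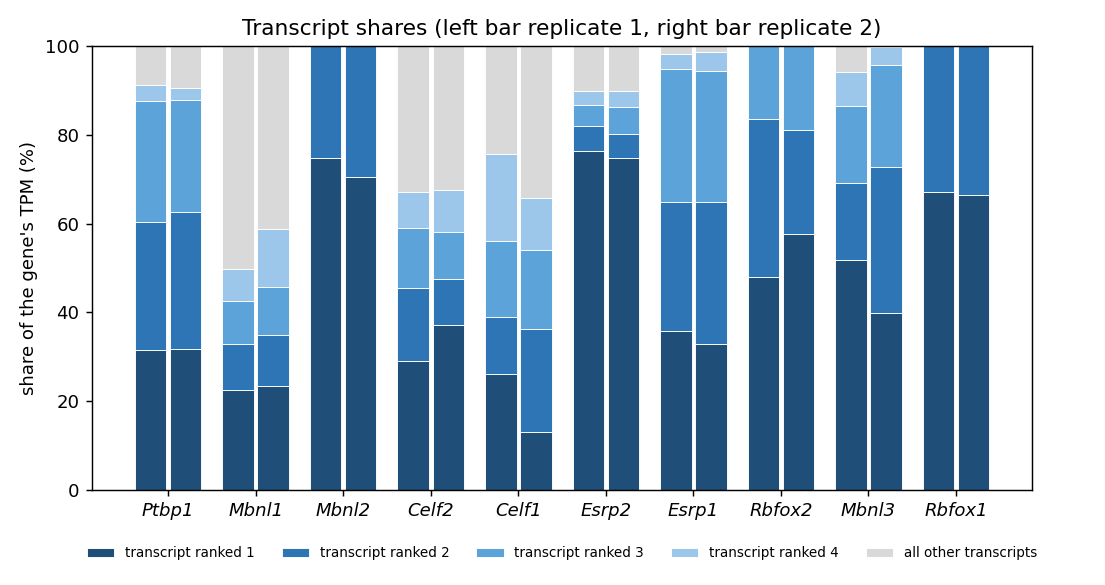
Share of each gene's TPM in percent (vertical axis) held by its 4 most abundant transcripts, in blue from dark to light by mean share, and by all its others in grey, with replicate 1 as the left bar and replicate 2 as the right bar of each gene. Esrp2, Mbnl2 and Rbfox1 have 1 transcript over 60% in both libraries, and the top transcript of Mbnl1 stays under 25%.

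Esrp1 was divided among 3 coding transcripts of like level, Esrp1-204 with 35.8% of its TPM in replicate 1 and 32.9% in replicate 2, Esrp1-203 with 29.0% and 32.0%, and Esrp1-201 with 30.0% and 29.5%, in the same order. Its 151-nt coding exon was included at 60.1% in replicate 1 and 62.4% in replicate 2. Inclusion is the TPM of transcripts that hold an exon as a percentage of the TPM of those that hold it or skip it, and transcripts with another form that overlaps the exon are in neither count. A 110-nt exon that is partly coding was included at 32.9% in replicate 1 and 36.7% in replicate 2. Esrp2 differed from Esrp1 in that 1 transcript, Esrp2-201, held 76.2% of its TPM in replicate 1 and 74.7% in replicate 2. Coding transcripts held 78.3% ± 1.67 of the Esrp2 TPM (SD, n = 2), and the rest came mainly from short transcripts annotated as retaining an intron. By counts not divided by length, coding transcripts held 95.2% in replicate 1 and 94.9% in replicate 2.

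Rbfox2 had 3 transcripts above 0. Rbfox2-203 held 47.8% of its TPM in replicate 1 and 57.6% in replicate 2, and Rbfox2-202 held 35.7% in replicate 1 and 23.4% in replicate 2. The interval of Rbfox2-203 was 12.1 to 16.4 TPM in replicate 1, below that of 17.0 to 21.3 TPM in replicate 2, and the intervals of Rbfox2-202 overlapped narrowly, at 9.92 to 14.4 TPM in replicate 1 and 6.17 to 10.1 TPM in replicate 2. Rbfox1-202 held 67.1% of the Rbfox1 TPM in replicate 1 and 66.5% in replicate 2, so that the shares of its 2 transcripts moved by 0.56 percentage points while its level differed about 2-fold. Mbnl2-202 held 74.8% of the Mbnl2 TPM in replicate 1 and 70.4% in replicate 2, with Mbnl2-201 as the remainder, and Mbnl2-202 was listed as 54 nt shorter. For Mbnl2, Rbfox1 and Rbfox2 no exon inclusion is given, because the lengths of several of their transcripts differ between the annotation used for the tables and the annotation the exons were read from.

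Mbnl1 had 25 transcripts, and the highest, Mbnl1-214, held 22.4% of its TPM in replicate 1 and 23.5% in replicate 2. The 54-nt exon was included at 38.9% in replicate 1 and 48.3% in replicate 2, a mean of 43.6% ± 6.66 (SD, n = 2). The 36-nt exon was included at 40.9% in replicate 1 and 47.2% in replicate 2. Among coding transcripts alone the 54-nt exon stood at 50.5% in replicate 1 and 54.8% in replicate 2, and the 36-nt exon at 51.3% in replicate 1 and 51.1% in replicate 2. Coding transcripts with and without each exon were thus assigned reads in each library. A 49-nt coding exon has a longer form of 154 nt with the same end. The 154-nt form was held by transcripts of 45.99 and 43.89 TPM in replicates 1 and 2, the 49-nt form by 6.81 and 11.66 TPM, and neither form by 12.83 and 4.07 TPM, all of it from transcripts listed as noncoding. The 49-nt form was thus 10.4% of all forms in replicate 1 and 19.6% in replicate 2, although against skipping alone it was 34.7% and 74.1%, in the same order. By start, Mbnl1 transcripts that begin at or just downstream of position 60500935 held 34.8% of its TPM in replicate 1 and 43.5% in replicate 2, and those from 60529031 held 46.3% in replicate 1 and 35.8% in replicate 2.

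Mbnl3-201 held 51.9% of the Mbnl3 TPM in replicate 1 and 39.9% in replicate 2, and it starts within the gene, at 51146415. Transcripts from the upstream start at 51205990 held 34.6% in replicate 1 and 55.8% in replicate 2. With 569 counts in replicate 1 and 691 counts in replicate 2 over 7 transcripts, the intervals of Mbnl3-201 overlapped, at 4.37 to 7.59 TPM in replicate 1 and 2.53 to 5.36 TPM in replicate 2.

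By TPM, the top transcript of Celf1 was not the same in both libraries. Celf1-205 held 26.0% of its TPM in replicate 1 and 13.0% in replicate 2, and Celf1-204 held 13.0% in replicate 1 and 23.3% in replicate 2. Both begin at 90998579, and the transcripts from that start together held 39.0% in replicate 1 and 36.3% in replicate 2, a gap of fewer percentage points than in either transcript. By the deposited posterior mean shares Celf1-205 held 17.3% in replicate 1 and 14.2% in replicate 2, and Celf1-204 15.2% and 21.1%, in the same order. The intervals of both transcripts overlapped between the libraries. A partly coding 152-nt exon of Celf1 was included at 35.2% in replicate 1 and 25.1% in replicate 2. Celf2-206 was the top transcript of Celf2, with 29.1% in replicate 1 and 37.1% in replicate 2. The 144-nt exon of Celf2 was included at 74.5% in replicate 1 and 76.0% in replicate 2. The Celf2 transcript annotated as a target of nonsense-mediated decay stood at 4.40 and 2.17 TPM in replicates 1 and 2. Most of the Celf2 TPM was assigned to transcripts from 3 annotated starts, and some of these transcripts are noncoding. The start at 7081313 held 19.9% in replicate 1 and 21.05% in replicate 2. In the same order, that at 6884996 held 35.8% and 44.7%, and that at 6722216 held 34.5% and 28.9%. A further start at 6872597 held 7.74% in replicate 1 and 4.38% in replicate 2.

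The shares of the 3 main Ptbp1 transcripts differed by at most 2.13 percentage points between the libraries. Ptbp1-216 held 31.4% of its TPM in replicate 1 and 31.7% in replicate 2, Ptbp1-206 28.9% and 30.9%, and Ptbp1-202 27.4% and 25.3%, in the same order. The 78-nt exon, whose inclusion is known to raise the repressive activity of Ptbp1, was included at 38.8% in replicate 1 and 38.3% in replicate 2, a mean of 38.5% ± 0.374 (SD, n = 2). The more abundant form in both libraries was thus the one that skips it. A 196-nt exon near the start of the gene has a shorter form of 31 nt with the same end. The 31-nt form was held by transcripts of 226.85 and 220.66 TPM in replicates 1 and 2, and the 196-nt form by 1 transcript of 6.48 and 8.11 TPM, so that the 196-nt form was 2.75% of all forms in replicate 1 and 3.51% in replicate 2. One cluster of starts, at 79854427, held 92.4% of the Ptbp1 TPM in replicate 1 and 92.8% in replicate 2, and Ptbp1-207, a target of nonsense-mediated decay per the annotation, held 3.67% in replicate 1 and 2.83% in replicate 2.

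**Figure D4:**
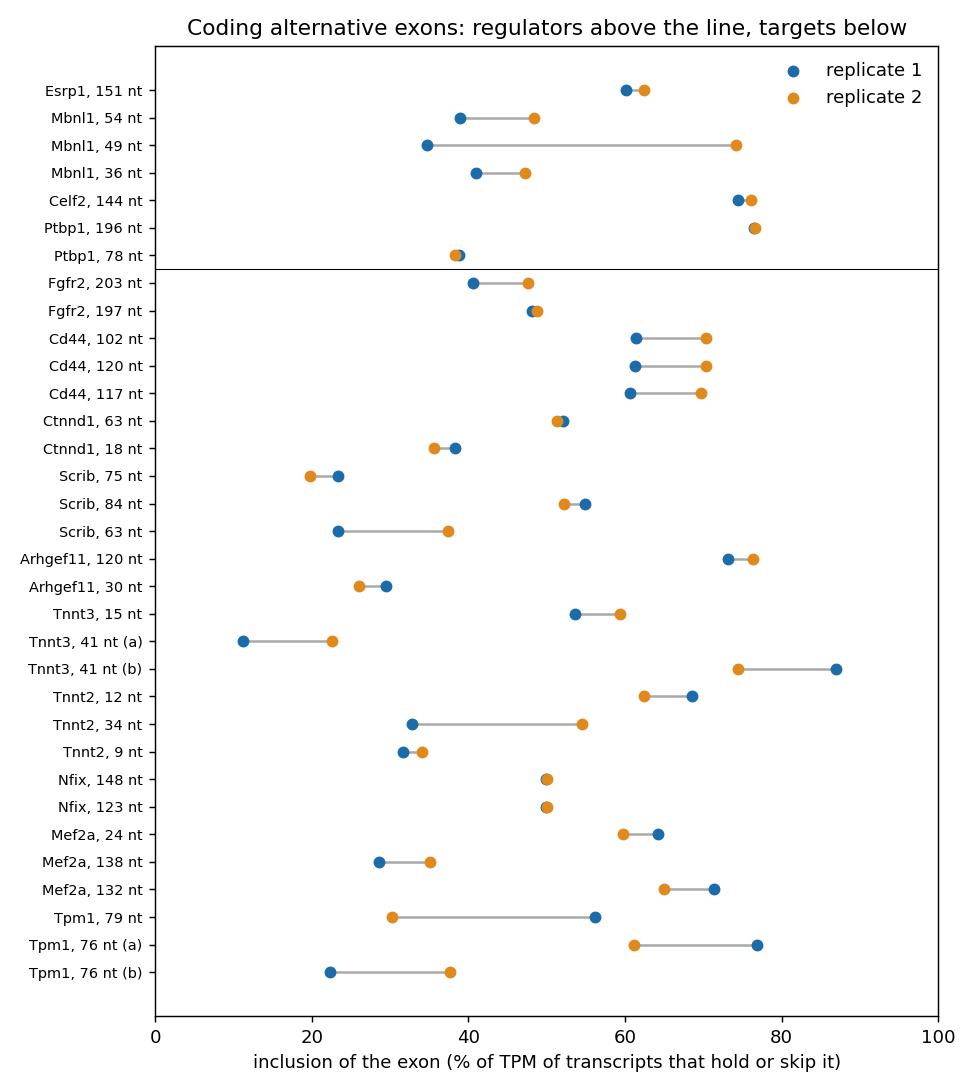
Inclusion in percent (horizontal axis) of fully coding exons named by the rule, in replicate 1 and replicate 2 with a line joining them, with 7 exons of the regulators above the horizontal line and 26 exons of known target genes below it. The 78-nt exon of Ptbp1 and the 144-nt exon of Celf2 lie within 5 percentage points between the libraries, and the 49-nt exon of Mbnl1 is 39.5 percentage points apart when its 154-nt form is in neither count. The 196-nt exon of Ptbp1, both long exons of Fgfr2 (203 and 197 nt) and the 12-nt and 34-nt exons of Tnnt2 are likewise drawn without their overlapping forms.

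Of 10 exons named in 6 of the regulators, 5 lay within 5 percentage points between the libraries and 8 were higher in replicate 2, with a median gap of 5.01 percentage points. With overlapping forms counted as not holding the exon, the widest gap among these 10 was 10.1 percentage points. Exons of 1 gene share transcripts and are not independent. Exons of genes outside the regulators and the listed targets were not measured, so these counts have no share over all exons beside them. In the known targets 14 of 29 exons lay within 5 percentage points and 17 were higher in replicate 2, with a median gap of 5.76 percentage points.

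Fgfr2 is the classical Esrp target, where Esrp proteins favour exon IIIb, the epithelial form, over exon IIIc, the mesenchymal form. The exons are alternatives within the same receptor domain, and a transcript holds one or the other. Exon IIIb made 27.7% of this pair in replicate 1 and 29.4% in replicate 2, a mean of 28.6% ± 1.20 (SD, n = 2), and exon IIIc made the rest. The pair covered 25.1 and 32.5 TPM in replicates 1 and 2, of the 86.0 ± 0.502 TPM of the gene (SD, n = 2). One further transcript, Fgfr2-211, with 12.6 and 11.0 TPM in replicates 1 and 2, was left out because its length differs between the annotations, and counting it by its identifier would raise exon IIIb to 51.9% in replicate 1 and 47.2% in replicate 2. Both forms were thus found in each library, and which was the more abundant depended on whether that transcript was counted.

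Other genes listed as Esrp targets also had exons held in some transcripts and skipped in others. Here and below targets are genes, and whether each exon follows the factor was not tested. The 63-nt exon of Ctnnd1, which encodes a catenin of cell junctions, was included at 52.0% in replicate 1 and 51.3% in replicate 2, and its 18-nt exon at 38.3% in replicate 1 and 35.6% in replicate 2. A partly coding 289-nt exon of Ctnnd1 was included at 63.4% in replicate 1 and 61.5% in replicate 2. A noncoding 118-nt exon, chosen after its values were seen, stood at 7.28% and 3.07%, in the same order. In Cd44, a receptor for hyaluronan whose variable exons are held in epithelia, the 102-nt exon was included at 61.4% in replicate 1 and 70.3% in replicate 2. Of 7 further Cd44 exons, left unnamed by the limit of 3 per gene and chosen after their values were seen, 2 had a mean inclusion of 65.9% and 66.5% and 5 lay between 14.6% and 16.4%. The 84-nt exon of Scrib, a gene of epithelial polarity, was included at 54.9% in replicate 1 and 52.2% in replicate 2, but at a mean of 4.89% over coding transcripts alone. In Arhgef11 a 120-nt exon was included at 73.1% in replicate 1 and 76.3% in replicate 2, and a 30-nt exon at 29.4% and 26.1%, in the same order.

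Among targets of Mbnl and Celf, the 42-nt exon of Atp2a1, the calcium pump of fast muscle, was included at 50.4% in replicate 1 and 51.1% in replicate 2. The exon is part of the adult form, and its inclusion differed by 0.69 percentage points while the level of Atp2a1 was 246.94 and 68.38 TPM in replicates 1 and 2. In Tnnt3, a troponin T of fast muscle, the upstream of 2 exclusive 41-nt exons made 11.4% of the pair in replicate 1 and 23.2% in replicate 2. In Tnnt2, the troponin T of heart and fetal skeletal muscle, a 12-nt exon was included at 68.5% in replicate 1 and 62.5% in replicate 2, or at 63.9% and 55.8%, in the same order, of all forms that overlap it. A 30-nt exon of Tnnt2, outside the range for naming in replicate 2, was chosen after its values were seen. It was included at 84.9% in replicate 1 and 90.05% in replicate 2, or at 78.9% and 80.5% of all forms, in the same order. In Nfix, a transcription factor of fetal muscle, a 123-nt exon and a 148-nt exon were each included at 49.9% in replicate 1 and 49.99% in replicate 2.

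Among targets of Rbfox and Mbnl, the muscle transcription factor gene Mef2a used the 132-nt exon of an exclusive pair in 71.4% of that pair in replicate 1 and 64.9% in replicate 2. The other exon of that pair, 138 nt long, made 28.6% in replicate 1 and 35.1% in replicate 2. A 24-nt exon of Mef2a was included at 64.2% in replicate 1 and 59.7% in replicate 2. In Mef2d, whose muscle isoform uses the second exon of a like pair and a short exon further on, 2 exons were chosen after their values were seen. The muscle exon of the pair, 135 nt long, made 8.76% of it in replicate 1 and 3.10% in replicate 2, and the 21-nt exon was included at 14.1% in replicate 1 and 6.13% in replicate 2. Each rests on 1 transcript, Mef2d-202 with 2.07 and 0.52 TPM for the 135-nt exon and Mef2d-203 with 3.33 and 1.03 TPM for the 21-nt exon, in replicates 1 and 2. Both exons were higher in replicate 1, and the part of the muscle markers, also higher there, was not tested. The 21-nt exon (chr3:88161781-88161801, plus strand) is shown as the shortest of the measured Mef2d exons.
Mef2d 21-nt exon: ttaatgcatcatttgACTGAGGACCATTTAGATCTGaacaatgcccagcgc

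Among targets of Ptbp1, Tpm1, a tropomyosin gene whose splicing Ptbp1 is known to affect, used the upstream of 2 exclusive 76-nt exons at 22.5% of the pair in replicate 1 and 38.1% in replicate 2. Its 79-nt exon was included at 56.2% in replicate 1 and 30.2% in replicate 2. The measured 126-nt exons of Tpm1, outside the range for naming, were chosen after their values were seen. That at 67047786 was included at 98.93% in replicate 1 and 99.04% in replicate 2. That at 67048124 was included at 1.22% in replicate 1 and 1.76% in replicate 2. Which of these Tpm1 exons follow Ptbp1 was not tested. Tpm1 itself had 852.93 and 577.86 TPM in replicates 1 and 2. The muscle markers had a median log2 difference of 1.53 in favour of replicate 1, whose part in these inclusions was not tested. Pkm-201, taken as the pyruvate kinase transcript with the M2 exon that Ptbp1 favours, was chosen after its value was seen. It held 86.8% of the Pkm TPM in replicate 1 and 92.6% in replicate 2. No Pkm exon was measured, and the length of the other transcript, Pkm-202, differs between the annotations. Ptbp2, whose own message Ptbp1 lowers through skipping of an exon, had a single quantified transcript, so that exon could not be measured. Clcn1, a chloride channel of muscle, lay below the minimum of 1 TPM, at 0.56 ± 0.41 TPM (SD, n = 2), so none of its exons was named. No exon met the rule in Enah, Ldb3, Bin1, Insr, Mef2c, Pkm or Actn1, and in Bin1, Ldb3 and Mef2c every transcript was left out because its length differs between the annotations.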

How the data were processed

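Both libraries hold limb RNA over 200 nt, 10 ng per library, with a spike-in set, per the labels. The authors deposited, per the file headers, expected counts (estimated counts that need not be whole), TPM, posterior mean TPM, intervals of TPM and transcript percent values, against GENCODE M4 on mm10. The aligner, counting program and strand setting were not given in the sources used here. Counts of 7 of the 10 genes were whole numbers within 0.001 in both libraries, and those of Esrp2, Celf2 and Ptbp1 were not. Intervals cover counting and read assignment only, not differences between embryos. Gene names, positions and exons were read from GENCODE M21, which is on GRCm38 and thus on the build of the tables. Transcripts whose length differed from M21 were left out of exon inclusion, and 109 of 114 transcripts of the 10 genes were kept.

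Steps ran in Python 3.11.15 (numpy 2.4.6, matplotlib 3.10.9, pandas 2.3.3). Differences are log2 of replicate 1 over replicate 2 of TPM + 0.1, centred on 15571 genes with a mean of at least 1 TPM (shift 0.02). The yardstick is the 95th percentile of absolute differences in the same of 20 bins of level. With 1 group there was no test and no p-value. The difference calculation was run on simulated data in which every gene had the same added spread. In these libraries the SD of log2 differences was 0.194 at the level of Mbnl1 and 0.942 at that of Rbfox1. That run therefore says nothing of which genes pass the yardstick here. All 10 regulators and their paralogues were named, as were tissue-restricted regulators with a mean of at least 1 TPM and the 2 highest and 2 lowest broad regulators. Exons of regulators and known targets were named at a gene mean of at least 1 TPM and 10 to 90 percent inclusion in both libraries. At most 3 per gene were named, those nearest 50 percent, and not every named exon has its values in the text. The genes, lists and targets were chosen with earlier results of these data known.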

Additional observations from a re-analysis of the deposited data

How the results depend on the processing

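Leaving out 1 of 2 libraries gives the value of the other and says nothing of stability. Without division by length, the log2 ratios were -0.17 for Mbnl1 over Mbnl2 and 0.35 for Celf1 over Celf2, both of the opposite sign. Of the others they were -0.12 for Esrp1 over Esrp2, 5.16 for Rbfox2 over Rbfox1, 3.74 for Mbnl2 over Mbnl3, 3.58 for Mbnl1 over Mbnl3, 3.17 for Ptbp1 over Ptbp2, 1.86 for Ptbp1 over Ptbp3 and 0.62 for the Mbnl sum over the Celf sum. A pseudocount of 1 gave 2.73 for Mbnl2 over Mbnl3, 2.96 for Mbnl1 over Mbnl3, 2.65 for Ptbp1 over Ptbp3 and 0.77 for the Rbfox1 difference between libraries. Posterior mean TPM gave 2.74 for Mbnl2 over Mbnl3, 2.64 for Ptbp1 over Ptbp3 and 0.98 for the Rbfox1 difference. With every Fgfr2 transcript matched by identifier, an alternative chosen after seeing the data, exon IIIb made 49.6% of the pair. Coding transcripts alone moved 13 of 39 exon inclusions by more than 1 SD, and posterior mean TPM moved 6. Counting transcripts with another overlapping form as not holding the exon, also chosen after seeing the data, moved 6 of 39. No paired analysis was possible because there is 1 group. An estimate from 2 pools says little of the spread between embryos, and amplified reads from 10 ng of RNA are not independent molecules.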
